A study of Mus musculus with 4 samples.

Results

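The angiocrine Wnt and R-spondin pathway of liver sinusoidal endothelial cells (LSECs) was described here through 10 genes, chosen by symbol from the 18373 genes of the deposited table. They are the ligands *Wnt2*, *Wnt9b*, *Rspo3* and *Rspo1*, the secretion factor *Wls*, the receptors *Fzd4*, *Fzd6*, *Lrp5* and *Lrp6*, and the target gene and inhibitor *Axin2*. All 10 members had a row in the table. The table comes from RNA-seq of primary LSECs from 8-week-old Balb/c mice, in 4 libraries. The labels assign 2 libraries to NC, the cells given the control siRNA, and 2 to si*Airn*, the cells given siRNA against the long non-coding RNA *Airn*. Cells of both groups were liver LSECs at day 3, which had been cultured for 24 h and transfected for 48 h, and the strain was the same. The labels of both si*Airn* libraries name si*Airn*1, whereas the methods speak of 2 separate siRNAs, so the siRNA given to each library is not known for certain. The cells were purified over a density gradient and with anti-CD146 beads before culture, and no source says whether the replicates came from separate mice, so the p-values measure the spread between these libraries.

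LSECs are the main source of angiocrine Wnt signals in the liver. Wnt ligands are lipid-modified proteins that need the carrier encoded by *Wls* to leave the cell, and they bind a Frizzled receptor together with *Lrp5* or *Lrp6*. The receptor pair stops the destruction complex, so that beta-catenin accumulates and activates genes with TCF/LEF factors, among them the negative regulator *Axin2*. R-spondins do not open this route themselves but strengthen it by keeping Frizzled receptors on the surface. In the liver, *Wnt2*, *Wnt9b* and *Rspo3* from endothelial cells around the central vein maintain the pericentral programme of hepatocytes and take part in regeneration.

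The direction of every difference below follows the labels, because *Airn* itself did not show a lower level in the si*Airn* libraries. NC held 7 and 3 *Airn* counts, and si*Airn* held 11 and 9, a ratio of 1.97 scaled to library size (exact binomial 95% interval 0.88 to 4.71, counting error only). Library totals ran from 17308382 to 18371959 counts. Over all 13628 genes with enough counts for a test, edgeR's quasi-likelihood test called 16.8% at a Benjamini-Hochberg adjusted p under 0.05, 8.27% higher and 8.56% lower in si*Airn* (1127 and 1167 genes, or 365 and 680 once GC content and transcript length were corrected for). The groups did not overlap, in CPM (counts scaled to library size), for 62.7% of the genes tested. The LSEC marker list held its defining genes at well above 0 in every library, but its summed level was 3750 and 3780 CPM in NC and 2640 and 2400 CPM in si*Airn*, and 9 of 10 markers were called lower. Pan-endothelial markers summed to 8960 and 8600 CPM in NC and to 6530 and 5760 CPM in si*Airn*, with 5 of 8 called lower. Kupffer cell and macrophage markers summed to 227 and 275 CPM in NC and to 176 and 144 CPM in si*Airn*, with 6 of 10 tested markers called lower. Stellate cell and fibroblast markers summed to 1180 and 1390 CPM in NC and to 1440 and 1870 CPM in si*Airn*, where 4 of 12 were called higher. Hepatocyte markers summed to 513 and 664 CPM in NC and to 732 and 945 CPM in si*Airn*, with 1 of 8 tested markers called higher. None of these lists had a gene at 0 counts in all 4 libraries, and in bulk RNA fewer cells of a type and less RNA per cell cannot be told apart. The part of these shifts in the members' values was not tested.

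Of the 10 members, 8 had enough counts for a test and 5 of these were called, against 16.8% of all genes tested. *Fzd4*, *Rspo3* and *Lrp6* rose in si*Airn*, and *Wnt2* and *Lrp5* fell. *Wls*, *Fzd6* and *Axin2* were not called, and *Wnt9b* and *Rspo1* were near or at 0 counts. The methods set a threshold of 1.4-fold and a p under 0.05 and do not say whether that p was adjusted. With the p taken as unadjusted, *Wnt2* and *Fzd4* passed it, 2 of the 8 tested against 9.96% of all genes tested. The groups did not overlap in CPM for 6 of the 8, the called genes and *Wls*, which is near the share among all genes tested (62.7%).

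**Figure D1:**
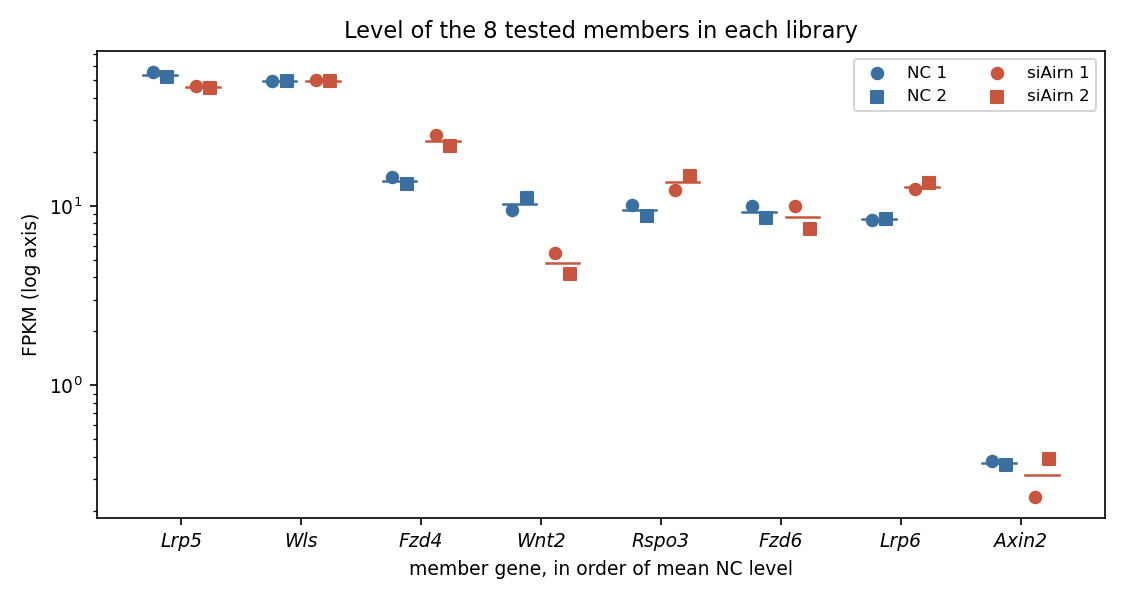
Level of the 8 tested members in FPKM (log axis) in each of the 4 libraries, with a short line at each group's mean (n = 2). *Wnt2* lies at 9.51 and 11.09 in NC and at 5.45 and 4.17 in si*Airn*, *Fzd4* moves the opposite way from 14.41 and 13.25 to 24.74 and 21.55, and *Wls* stays between 49.31 and 50.12 in every library.

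On the FPKM scale, which allows levels of different genes to be set side by side because it corrects for transcript length, the co-receptor *Lrp5* and the carrier *Wls* led the members in NC, with mean levels of 53.8 and 49.5. *Fzd4* followed at 13.8, and then *Wnt2* at 10.3, *Rspo3* at 9.45, *Fzd6* at 9.28 and *Lrp6* at 8.41. The NC values of *Wnt2* and *Rspo3* overlapped, as did those of *Rspo3* and *Fzd6*. *Axin2* was far below these at 0.37. In si*Airn* the order was *Wls* (49.9), *Lrp5* (45.9), *Fzd4* (23.1), *Rspo3* (13.5), *Lrp6* (12.8), *Fzd6* (8.7) and *Wnt2* (4.81), and of these neighbours only *Rspo3* and *Lrp6* overlapped. *Wnt2* thus had rank 4 among the members in NC and rank 7 in si*Airn*.

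The sequences before the start sites of *Wnt2* and *Fzd4* are shown because these members had the largest decrease and the largest increase. They are the 250 bases upstream of each start from RefSeq (GRCm38.p6), 5′ to 3′ on the strand of the gene. The *Wnt2* stretch is chr6:18030446-18030695 on the minus strand and the *Fzd4* stretch is chr7:89404116-89404365 on the plus strand. Capitals mark matches on either strand to CTTTGA (the core word of TCF/LEF factors), CACCC (Kruppel-like factors) and GATAA (GATA factors), and no matches overlapped.
Wnt2: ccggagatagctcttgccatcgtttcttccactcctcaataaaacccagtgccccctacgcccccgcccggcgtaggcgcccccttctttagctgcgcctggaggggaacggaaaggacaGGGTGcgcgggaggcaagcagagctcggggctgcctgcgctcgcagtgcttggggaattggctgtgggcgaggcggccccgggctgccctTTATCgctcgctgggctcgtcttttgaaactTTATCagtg
Fzd4: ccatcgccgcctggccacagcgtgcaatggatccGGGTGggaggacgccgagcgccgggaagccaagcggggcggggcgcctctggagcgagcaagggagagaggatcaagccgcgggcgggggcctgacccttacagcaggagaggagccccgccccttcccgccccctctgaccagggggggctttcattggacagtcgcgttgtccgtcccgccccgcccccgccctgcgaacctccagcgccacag

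The *Wnt2* stretch held 1 match to CACCC and 2 to GATAA, all of them on the opposite strand, the nearest GATAA match beginning 9 bases before the start. The *Fzd4* stretch held 1 match to CACCC, also on the opposite strand. Windows of the same kind were available for 6 of the 10 members, namely *Wnt2*, *Fzd4*, *Wnt9b*, *Rspo1*, *Wls* and *Axin2*. None was available for *Rspo3*, *Fzd6*, *Lrp5* or *Lrp6*. CACCC was found in 5 of these 6 (not in *Wnt9b*), against 52.0% of all 32851 windows in the reference. These shares were not matched for GC content, which was 58% to 72.8% in the 6 windows and had a median of 52.4% over all windows. GATAA was in 22.6% of all windows and, among the 6, in that of *Wnt2*. CTTTGA was in 13.8% of all windows and in none of the 6, that of *Axin2* included. These matches are words in a short window and were not tested for binding.

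*Wnt2* (gene ID 22413), the Wnt ligand of LSECs that acts on hepatocytes, showed the largest change of any member. The NC libraries held 395 and 494 of its counts, the si*Airn* libraries 221 and 175. Scaled to library size these were 23.1 and 27.3 CPM in NC against 12.2 and 9.89 CPM in si*Airn*, or 25.2 ± 3.01 and 11.1 ± 1.65 CPM (SD, n = 2 each). Both si*Airn* libraries lay below both NC libraries. Its expression in si*Airn* was 0.439 of that in NC and thus fell by 1.19 on the log2 scale (95% interval -1.52 to -0.85, standard error 0.14), and the adjusted p was 0.00683 (edgeR). No stretch of 50 bases in *Wnt2* transcripts was shared with another gene of the GENCODE M21 annotation, and no exonic base lay under an exon of the opposite strand. Per 1000 CPM of pan-endothelial markers, *Wnt2* stood at 2.57 and 3.18 CPM in NC and at 1.87 and 1.72 CPM in si*Airn*. On this scale the log2 ratio of the group means was -0.68, a smaller difference than -1.19. Per 1000 CPM of LSEC markers, *Wnt2* was at 6.15 and 7.23 CPM in NC and at 4.62 and 4.13 CPM in si*Airn* (log2 ratio of means -0.61). The groups did not overlap on either scale, and these ratios were not tested.

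*Wnt9b* (gene ID 22412), the other Wnt ligand known from endothelial cells of the central vein, was scarcely detected in these cultures. Its counts were 0 and 1 in the NC libraries and 2 and 0 in the si*Airn* libraries, and a count of 0 allows up to 3 counts, which is 0.166 to 0.175 CPM in these libraries. A difference was not detectable at this depth, the ratio of the summed counts being 1.97 with an exact binomial 95% interval from 0.103 to 116. Among all 16 Wnt genes in the table, *Wnt2*, *Wnt5b* and *Wnt9a* reached 1 FPKM in every library. *Wnt2* made up 62.7% and 67.3% of the summed Wnt FPKM in NC and 50.3% and 47.5% in si*Airn*. The summed level of all Wnt genes went from 15.2 and 16.5 FPKM in NC to 10.8 and 8.77 FPKM in si*Airn*. *Wnt2* was the most abundant Wnt transcript in all 4 libraries.

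*Rspo3* (gene ID 72780), the R-spondin of the central vein endothelium, moved the opposite way from *Wnt2*. The values were 23.2 and 20.4 CPM in NC and 27.2 and 33.3 CPM in si*Airn* (398 and 369 counts against 492 and 589). Both si*Airn* libraries were above both NC libraries, and si*Airn* replicate 2 was the highest. *Rspo3* rose 1.39-fold, a log2 difference of 0.47 (standard error 0.13, 95% interval 0.17 to 0.77, adjusted p = 0.0456 by the same edgeR test). This call is close to the threshold and was lost with DESeq2 (adjusted p = 0.0584), without the filter on low counts (0.0571) and once GC content and transcript length were corrected for (0.0873). Per 1000 CPM of pan-endothelial markers, *Rspo3* stood at 2.59 and 2.37 CPM in NC and at 4.17 and 5.78 CPM in si*Airn*. In the annotation, 13.1% of the exonic bases of *Rspo3* lie under exons of the antisense gene *Gm48159*, and 11.6% of its 50-base stretches are shared with that gene, so reads of the 2 genes could be mixed if strand was not used. Stellate cells also express *Rspo3*, and the 12 stellate and fibroblast markers all had log2 fold changes above 0, with a median of 0.39. Their part in the *Rspo3* difference was not tested.

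*Rspo1* (gene ID 192199), a further R-spondin, was read 5 and 0 times in NC, and 3 and 1 times in si*Airn*. The ratio of the sums was 0.788 (exact binomial 95% interval 0.156 to 3.66), so no difference could be seen at this depth. *Rspo3* and *Rspo1* were the 2 R-spondin genes in the table, and *Rspo3* held 98.2% or more of their summed FPKM in each library. The balance between the leading R-spondin and the leading Wnt changed with the group. The ratio of *Rspo3* to *Wnt2* in FPKM was 1.06 and 0.795 in NC and 2.24 and 3.54 in si*Airn*. The 2 transcripts were thus at similar levels in NC, and *Rspo3* exceeded *Wnt2* in both si*Airn* libraries.

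**Figure D2:**
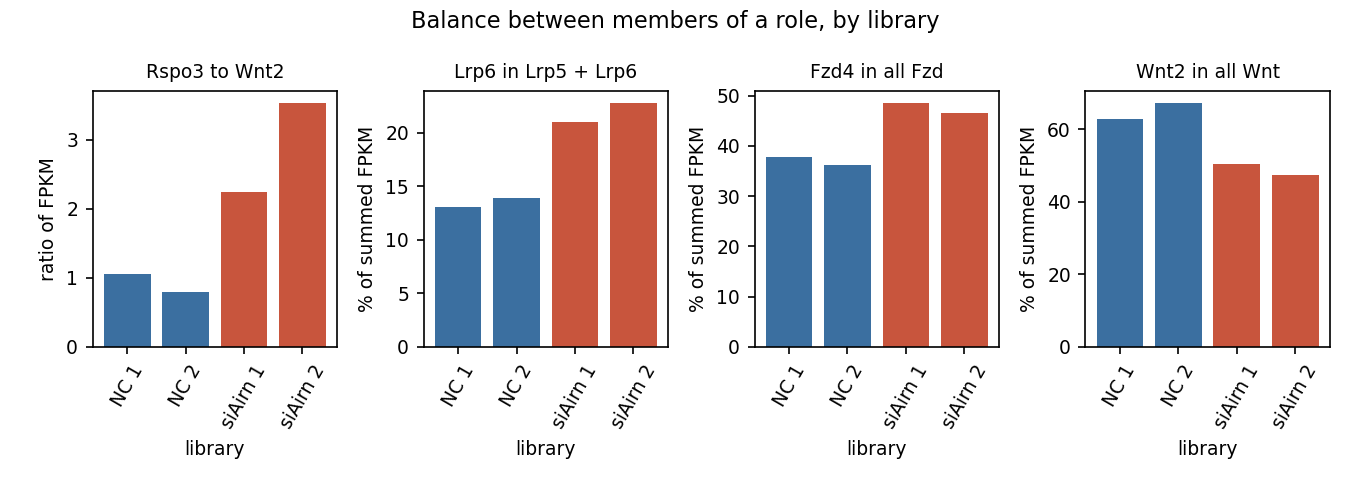
Bars give, in each library, the ratio of *Rspo3* to *Wnt2* FPKM, and the percentage of *Lrp6* in the summed FPKM of *Lrp5* and *Lrp6*, of *Fzd4* in that of all Frizzled genes and of *Wnt2* in that of all Wnt genes. In each panel both si*Airn* libraries lie on the same side of both NC libraries, above for the first 3 and below for *Wnt2*.

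*Wls* (gene ID 68151), which carries Wnt proteins to the cell surface, hardly differed. It was measured at 49.77 and 49.31 FPKM in NC and at 50.12 and 49.62 FPKM in si*Airn*. The FPKM values of the groups overlapped, while the CPM values (125 and 123 against 121 and 121) did not, by a narrow margin. Its log2 fold change was -0.04 with a 95% interval from -0.18 to 0.10 (adjusted p = 0.685, edgeR). Its sign was positive on log2(FPKM + 1). Relative to the summed pan-endothelial markers, of which 5 of 8 were called lower, *Wls* had 13.9 and 14.3 CPM per 1000 CPM in NC and 18.5 and 21.0 in si*Airn*.

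*Fzd4* (gene ID 14366), a Frizzled receptor of endothelial cells that binds Wnt proteins and also Norrin, had the largest increase of the members. Its counts were 890 and 868 in NC and 1564 and 1348 in si*Airn*, which gave 51.9 and 48.0 CPM against 86.5 and 76.2 CPM. The groups were far apart compared with the spread within them (50.0 ± 2.80 and 81.4 ± 7.29 CPM, SD, n = 2 each). *Fzd4* rose 1.63-fold, by 0.70 on the log2 scale (standard error 0.09, 95% interval 0.50 to 0.91, adjusted p = 0.00705 by edgeR's test). Only 0.15% of its 50-base stretches occur in other annotated genes. Relative to 1000 CPM of pan-endothelial markers, *Fzd4* had 5.8 and 5.58 CPM in NC and 13.3 and 13.2 CPM in si*Airn*.

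*Fzd6* (gene ID 14368), a Frizzled receptor known mainly from planar polarity, did not follow *Fzd4*. It was at 10.02 and 8.54 FPKM in NC and at 9.98 and 7.41 FPKM in si*Airn*. The groups overlapped, and the log2 fold change of -0.13 (standard error 0.14, 95% interval -0.47 to 0.20) had an adjusted p of 0.549 in the edgeR fit. Of the 10 Frizzled genes in the table, 6 reached 1 FPKM in every library, and *Fzd4* was the most abundant of all. *Fzd4* made up 37.8% and 36.2% of the summed Frizzled FPKM in NC and 48.6% and 46.6% in si*Airn*. The sum itself was 38.2 and 36.6 FPKM in NC and 50.9 and 46.3 FPKM in si*Airn*.

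The co-receptors *Lrp5* (gene ID 16973) and *Lrp6* (gene ID 16974), close relatives that pair with Frizzled proteins, changed in opposite directions. *Lrp5* was at 256 and 240 CPM in NC and at 212 and 209 CPM in si*Airn*, a decrease to 0.848 of the NC level (log2 fold change -0.24, standard error 0.06, 95% interval -0.39 to -0.09, adjusted p = 0.0465 by edgeR's test). *Lrp6* was at 78.1 and 79.1 CPM in NC and at 106 and 109 CPM in si*Airn*, an increase of 1.37-fold (log2 fold change 0.45, standard error 0.06, 95% interval 0.31 to 0.60, adjusted p = 0.00854 by the same test). Neither gene's groups overlapped, and the replicates of *Lrp6* were within a few CPM of each other.

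*Lrp5* remained the more abundant of the pair. The ratio of *Lrp5* to *Lrp6* in FPKM went from 6.64 and 6.17 in NC to 3.77 and 3.39 in si*Airn*, so that *Lrp6* made up 13.1% and 13.9% of their sum in NC and 21.0% and 22.8% in si*Airn*. The sum moved little, from 64.1 and 60.4 FPKM to 58.9 and 58.6 FPKM. The direction of *Lrp5* turned when it was set against pan-endothelial markers, with 28.6 and 27.9 CPM per 1000 CPM of these markers in NC and 32.5 and 36.2 in si*Airn*. Its call was also lost without the low-count filter (adjusted p = 0.0512) and with limma on log2(FPKM + 1) (0.0669). Set against the same markers, *Lrp6* was at 8.73 and 9.2 CPM per 1000 CPM in NC and 16.3 and 18.9 in si*Airn*. The *Lrp6* difference was 0.18 on the log2 scale once GC content and length were corrected for, with an adjusted p of 0.118, whereas that of *Lrp5* was -0.36 and still called (0.0185). Under this correction 1 member was called higher (*Fzd4*) and 2 lower (*Wnt2* and *Lrp5*). Across 12905 genes with both values, the log2 fold change correlated with GC content (Spearman rho -0.333) and with transcript length (0.364), as a description over genes that share the 4 libraries. *Lrp5* has a GC content of 54.7% and *Lrp6* of 46.0%, with a median of 49.7% over these genes. Both have long transcripts, of 8893 bases for *Lrp5* and 9368 for *Lrp6*, with a median of 3430 over these genes.

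*Axin2* (gene ID 12006), a direct target of beta-catenin whose product rebuilds the destruction complex, was low. Both NC libraries held 26 counts, and the si*Airn* libraries 17 and 27, or 0.38 and 0.36 FPKM against 0.24 and 0.39 FPKM. si*Airn* replicate 1 was the lowest and si*Airn* replicate 2 the highest, so the groups overlapped. With a difference of -0.26 on the log2 scale (standard error 0.38, adjusted p = 0.665, edgeR) the 95% interval from -1.15 to 0.63 was the widest of the 8 tested members.

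**Figure D3:**
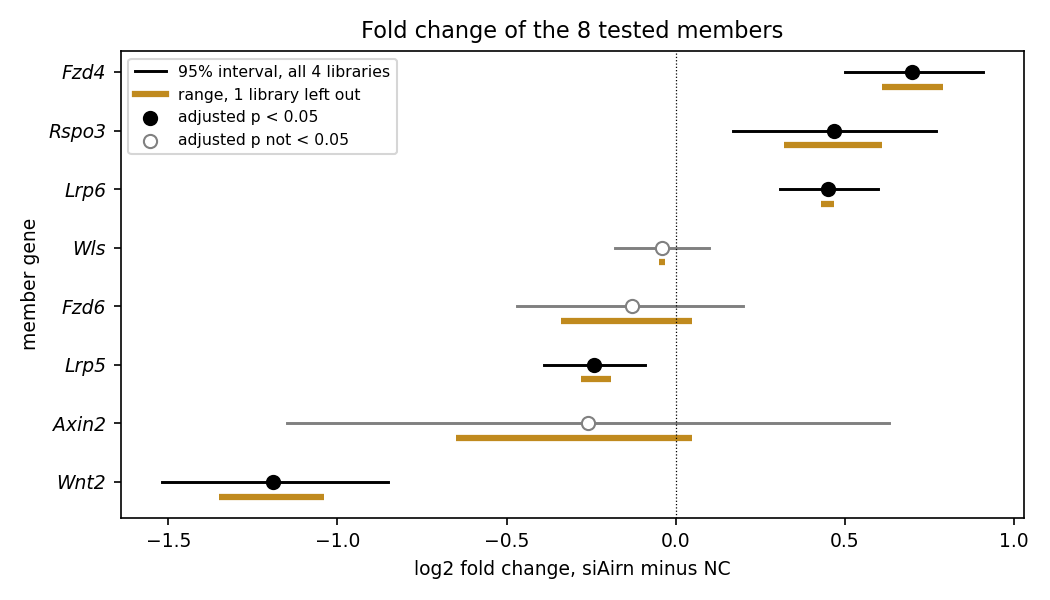
Log2 fold change of si*Airn* against NC for the 8 tested members, with the 95% interval from all 4 libraries (thin line) and the range when 1 library is left out (thick line). *Wnt2* at -1.19 and *Fzd4* at 0.70 lie at the ends, and the left-out ranges of *Fzd6* and *Axin2* cross 0.

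The 5 called members kept their directions when a library was left out, but not all their calls. Leaving out either NC library left 0 of the 8 members called by edgeR's quasi-likelihood test, with 4 at an unadjusted p under 0.05 each time, and 35 of all genes were called when NC replicate 1 was left out and 0 when NC replicate 2 was (3475 and 3075 genes at an unadjusted p under 0.05). The log2 fold change of *Wnt2* was between -1.35 and -1.04 in these fits, that of *Fzd4* between 0.61 and 0.79 and that of *Lrp6* between 0.43 and 0.47, and all 3 were called without either si*Airn* library. *Rspo3* was called without si*Airn* replicate 1 (range 0.32 to 0.61), and *Lrp5* in none of these fits (range -0.28 to -0.19).

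The wider pathway was described through 94 other genes in 7 lists by role, of which 85 were in the table and 62 were tested. 5 of them were called, 8.06% of those tested, against 16.8% of all genes. The median log2 fold change of the 62 was 0.07, and over all genes tested it was 0.00. Called higher were *Tnks* and *Apc*, and called lower were *Tcf7l1*, *Tspan12* and *Snx3*. These lists were written from general knowledge of the pathway. Both they and the members were chosen with earlier results of these data known, so the shares called are descriptions.

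**Figure D4:**
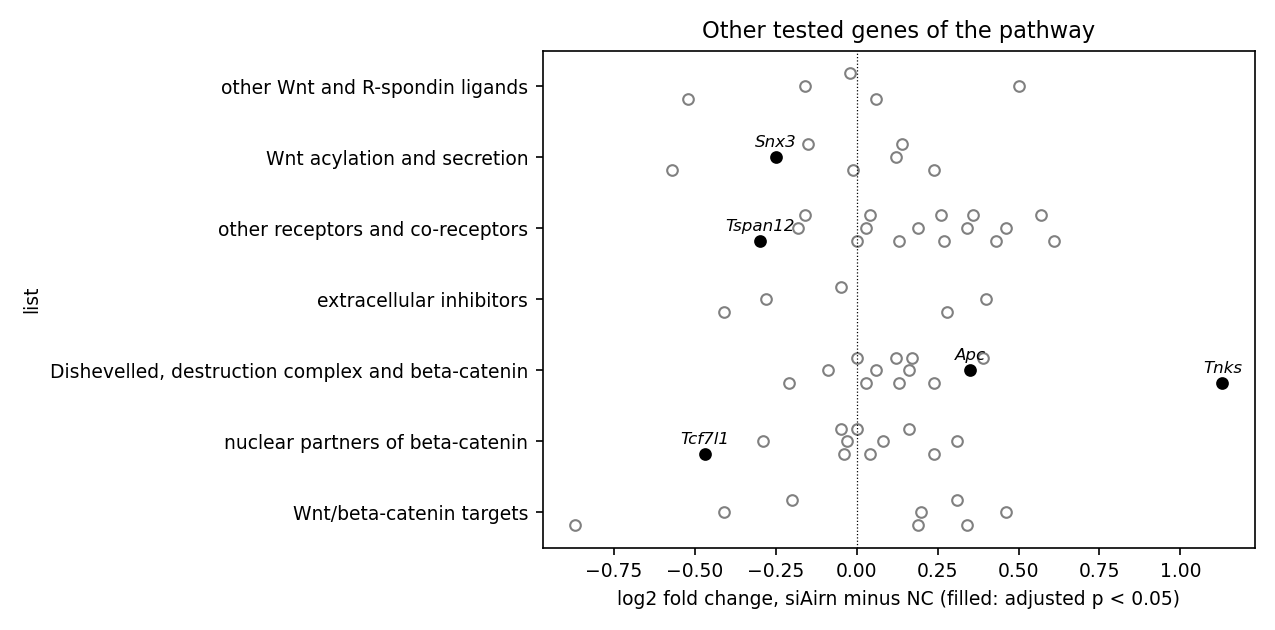
Log2 fold change of si*Airn* against NC for each tested gene of the 7 lists named on the left axis (filled points: adjusted p under 0.05; genes held by 2 lists appear in both). *Tnks* at 1.13 stands apart on the right, and the 4 other filled points lie between -0.47 and 0.35.

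The called genes outside the members act at several levels. *Tnks*, one of the tankyrases that mark Axin proteins for degradation, was at 3.32 and 2.83 FPKM in NC and at 6.25 and 7.62 FPKM in si*Airn*, a log2 difference of 1.13 (standard error 0.13, adjusted p = 0.00625, edgeR). Its si*Airn* values were both above its NC values, and this was the largest change among the 62 genes. *Apc*, a scaffold of the destruction complex, rose from 9.14 and 7.93 FPKM to 12.3 and 12.33 FPKM (log2 fold change 0.35, standard error 0.07, adjusted p = 0.0222). With GC content and length corrected for, the *Apc* difference was 0.02 (adjusted p = 0.828). Both belong to the list of Dishevelled proteins, destruction complex and beta-catenin, in which 2 of 13 genes were called, both higher. The most abundant gene of that list was *Ctnnb1*, which encodes beta-catenin, with 159.06 and 157.03 FPKM in NC and 169.2 and 163.98 FPKM in si*Airn* (log2 fold change 0.06, adjusted p = 0.53 by edgeR's test). The values of *Ctnnb1* in the 4 libraries lay close together.

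On the receptor side, 1 of 16 tested genes was called, *Tspan12*, a tetraspanin that assists *Fzd4* and *Lrp5* in Norrin signalling. It fell from 41.7 and 38.73 FPKM in NC to 35.01 and 32.36 FPKM in si*Airn* (log2 fold change -0.30, standard error 0.07, adjusted p = 0.0332, edgeR), in the direction of *Lrp5* and opposite to *Fzd4*. The *Tspan12* call was lost with DESeq2 (adjusted p = 0.0533), with limma on log2(FPKM + 1) (0.0696) and without si*Airn* replicate 2 (0.124). The most abundant gene of the list was *Ryk*, a Wnt-binding pseudokinase, at 62.13 and 66.45 FPKM in NC and 64.26 and 72.63 FPKM in si*Airn*, where the groups overlapped (log2 fold change 0.04, adjusted p = 0.776). Of the 7 genes for Wnt acylation and secretion, *Snx3*, a sorting nexin that returns *Wls* protein to the Golgi, was called. It had the highest mean FPKM of them over the 4 libraries, though not in si*Airn* alone, and fell from 269.96 and 274.33 FPKM to 235.5 and 236.71 FPKM (log2 fold change -0.25, standard error 0.06, adjusted p = 0.0319). *Snx3* was not called with limma on log2(FPKM + 1) (adjusted p = 0.0604), without si*Airn* replicate 1 (0.0919) or 2 (0.081), or with GC content and length corrected for (difference -0.08, adjusted p = 0.425). None of the 5 called genes was called without either NC library, with adjusted p from 0.0652 to 0.172.

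Of the nuclear partners of beta-catenin, 1 of 11 tested genes was called. *Tcf7l1*, a TCF factor that often represses its targets, fell from 24.82 and 23.36 FPKM in NC to 18.18 and 17.58 FPKM in si*Airn* (log2 fold change -0.47, standard error 0.07, adjusted p = 0.00993, edgeR). Replicates of each group differed by little compared with the gap between groups. The most abundant gene of the list, the chromatin reader *Pygo2*, was at 26.8 and 29.48 FPKM in NC and 26.89 and 28.61 FPKM in si*Airn* (log2 fold change -0.04, adjusted p = 0.769), with overlapping groups.

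None of the 5 tested genes among the other ligands was called by edgeR's quasi-likelihood test, and 0 had an unadjusted p under 0.05. Of all 13628 genes tested, 4631 had an unadjusted p under 0.05 in that test. The likelihood-ratio test of edgeR also called 0 of the 5. So did limma on log2(FPKM + 1), but it covered only those with a mean FPKM of at least 1. DESeq2 called 0 as well, but it gave no adjusted p for 6629 of all genes. *Wnt5b*, the most abundant of them and a ligand best known outside the beta-catenin route, was at 1.76 and 1.81 FPKM in NC and 1.65 and 1.75 FPKM in si*Airn* (log2 fold change -0.16, adjusted p = 0.61). For the extracellular inhibitors, edgeR's quasi-likelihood and likelihood-ratio tests called 0 of 5 tested genes, with 0 at an unadjusted p under 0.05 in the quasi-likelihood test. DESeq2 and limma called 0 too, with the same limits on the genes covered. Without si*Airn* replicate 1, 1 inhibitor was called. *Frzb*, a secreted Frizzled-related protein that binds Wnt ligands, was by far the most abundant inhibitor, at 73.63 and 91.07 FPKM in NC and at 85.78 and 119.13 FPKM in si*Airn*, and its groups overlapped (log2 fold change 0.28, adjusted p = 0.287). Its level was above that of each of the 10 members in all 4 libraries. Stellate cell and fibroblast markers were also detected in these libraries, so which cells expressed *Frzb* is not known.

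The beta-catenin targets were measured beside *Axin2*. Of 13 listed genes 8 were tested, and edgeR's quasi-likelihood test called 0 of them. In that test 2 of the 8 had an unadjusted p under 0.05, against 4631 of all 13628 genes tested. The likelihood-ratio test of edgeR called 0 of the 8 as well. DESeq2 and limma on log2(FPKM + 1) also called 0, with the same limits on the genes covered, and *Sp5* was outside the limma fit. Log2 fold changes ran from -0.87 to 0.46, with 5 genes above 0 and 3 below. *Myc*, a growth regulator with many inputs besides beta-catenin, was the most abundant, at 94.75 and 81.55 FPKM in NC and 100.94 and 104.48 FPKM in si*Airn* (log2 fold change 0.19, adjusted p = 0.157). The 2 genes at an unadjusted p under 0.05 were *Sp5* (log2 fold change -0.87, adjusted p = 0.118) and *Znrf3* (log2 fold change 0.46, adjusted p = 0.13), named after their values were seen, and their signs were opposite. *Sp5* encodes a transcription factor that is itself a Wnt target, and *Znrf3* the ubiquitin ligase that removes Frizzled receptors and is held back by R-spondins.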

How the data were processed

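The analysis covered 4 RNA-seq libraries, 2 NC and 2 si*Airn*, grouped by their labels. The authors deposited estimated counts without normalization. The authors' other values carry no unit in the header and were taken as FPKM from their proportion to the counts. The submitters' processing notes name BWA, Bowtie2, RSEM and the human build hg19. The build used for these mouse samples, the annotation and the use of strand are not given in the sources used here. The authors' group means were not used.

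Rounded counts were fitted with edgeR 4.0.16 under R 4.3.3 (TMM factors 0.985 to 1.02, filterByExpr, glmQLFit with robust set to false, glmQLFTest). P-values were adjusted by Benjamini-Hochberg over the 13628 genes tested, which left out *Wnt9b*, *Rspo1* and *Airn*. These are given as counts with exact binomial 95% intervals that cover counting error only. Totals ran from 17308382 to 18371959 counts and the common biological coefficient of variation was 0.0754. A two-sided exact permutation test of 2 against 2 cannot go below p = 0.333, so single values were not tested that way.

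The members and lists were chosen with earlier results of these data known. The genes named are the 10 members, *Airn*, up to 3 called genes of each other list with a mean of at least 1 CPM and its most abundant gene, and the 3 genes most like *Wnt2* across libraries. *Sp5* and *Znrf3* fall outside this rule and were named after their values were seen, as were *Lgr4*, *Wnt9a* and the antisense gene *Gm48159*. Alternatives were DESeq2 1.42.0, upper-quartile normalization, no filter, edgeR's likelihood-ratio test, a minimum of 10 counts in every library, a replicate block, limma 3.58.1 on log2(FPKM + 1) and log2(FPKM + 0.1) where the mean FPKM reached 1, a correction for GC content and length (splines with 5 degrees of freedom, GENCODE M21), a threshold of 2-fold or of an unadjusted p under 0.01, and fits without each library in turn. Fits of 3 libraries assume that the lone sample varies like the others. The calculations were tested on simulated data.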

Additional observations from a re-analysis of the deposited data

How the results depend on the processing

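*Wnt2* and *Fzd4* kept their calls in all 9 alternatives that used the 4 libraries and tested them, with log2 fold changes of -1.20 to -0.96 and 0.51 to 0.74. *Rspo3* was no longer called with DESeq2 (0.47), with no filter (0.46) or with the correction for GC content and length (0.42), *Lrp5* not with no filter (-0.24), with limma on log2(FPKM + 1) (-0.22) or on log2(FPKM + 0.1) (-0.23), and *Lrp6* not with the GC and length correction (0.18). *Wls*, not called in any fit, turned to 0.01 with both limma settings. The number of members called was 3 with no filter and 3 with the GC and length correction. That correction left 1045 of all genes and 3 other pathway genes called, and edgeR's likelihood-ratio test called 9 other pathway genes. A fold change over 2 left 1 member, *Wnt2*, past the threshold of the methods.

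The replicate numbers were not taken as pairs, since the labels name no shared source (libraries numbered 1 correlated at 0.221 in their deviations from the group means, over 13628 genes). With a replicate block, 4841 genes and 20 other pathway genes were called, among them 3 beta-catenin targets and 2 extracellular inhibitors (0 of each without the block), and the 5 members called stayed at 5.

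With 1 library left out, the ranges of log2 fold changes were -1.35 to -1.04 for *Wnt2*, 0.32 to 0.61 for *Rspo3*, 0.61 to 0.79 for *Fzd4*, -0.28 to -0.19 for *Lrp5*, 0.43 to 0.47 for *Lrp6*, -0.65 to 0.05 for *Axin2* (above 0 without si*Airn* replicate 1) and -0.34 to 0.05 for *Fzd6* (above 0 without si*Airn* replicate 2). The number called ran from 0 to 4 members, 0 to 2332 of all genes and 0 to 6 other pathway genes, with 0 members without either NC library. The cause of these differences was not tested. Depth limited *Axin2*, *Wnt9b* and *Rspo1*, which had at most 27 counts in a library.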

Other observations

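The named genes with the pattern most like that of *Wnt2*, by Euclidean distance of centred log2 CPM over the 4 libraries among genes of at least 5 CPM, were *Dnase1l3* (distance 0.108), *Gpihbp1* (0.17) and *Efcc1* (0.222). *Dnase1l3*, a secreted nuclease, was at 44.1 and 47.4 CPM in NC and 21.8 and 18.4 CPM in si*Airn*. *Gpihbp1*, the endothelial anchor of lipoprotein lipase, was at 170 and 171 CPM in NC and 84.3 and 66.4 CPM in si*Airn*. Their log2 fold changes were -1.19, -1.18 and -1.11. The genes were chosen for this pattern, so these values are a description with no test.

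Endothelial genes that mark the pericentral and periportal ends of the sinusoid are described by their values, with no test of either group. Of 3 pericentral markers, *Thbd*, the thrombin receptor thrombomodulin, was called higher (log2 fold change 0.37, adjusted p = 0.0278) and the other 2, not called, had log2 fold changes of -0.47 and -0.02. Of 5 periportal markers, *Efnb2*, an ephrin of arterial endothelium, was called higher (0.46, adjusted p = 0.0227), and the scavenger receptor *Msr1* (-0.85, adjusted p = 0.0112) and the netrin *Ntn4* (-0.87, adjusted p = 0.00574) were called lower. The other 2 periportal markers, not called, had -0.37 and -0.12. Of all genes tested, 16.8% were called. The 10 tested Kupffer cell and macrophage markers had a median log2 fold change of -0.74, and their part in the *Msr1* difference was not tested. Among genes that Wnt signals maintain in hepatocytes, 1 of 5 tested in these LSEC libraries was called, against 16.8% of all genes tested. The called gene was *Glul*, which encodes glutamine synthetase. It fell from 73.68 and 86.61 FPKM in NC to 61.22 and 66.93 FPKM in si*Airn* (-0.36, adjusted p = 0.0439). This call was lost with limma on log2(FPKM + 1) (adjusted p = 0.0711), with GC content and length corrected for (0.0649), without si*Airn* replicate 1 (0.0897) and without either NC library (0.0807 and 0.228).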
